A study of Homo sapiens with 2 samples.

Results

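This account covers the genes of 4 human enzyme families that act on reactive or foreign compounds. They are the aldehyde dehydrogenases (ALDH), the aldo-keto reductases (AKR), the UDP-glycosyltransferases of the UGT1, UGT2 and UGT8 groups (UGT) and the glutathione S-transferases, soluble and microsomal (GST). Genes were taken by symbol, with no filter on level, and 51 of the 14526 named genes on the arrays belonged. The ALDH family had 19 of them, the AKR family 8, the UGT family 6 and the GST family 18. Expression was measured in NUGC4 cells, an established human gastric cancer line. One culture had received an siRNA against ANO5 (anoctamin 5, one of the anoctamins, which sit in membranes) and the other a negative control siRNA. Both siRNAs were given at 20 nmol/l in a transfection 24 h after seeding, so the lipid carrier and the presence of siRNA are common to both cultures. A single siRNA product and a single line were used, and each group is 1 array. No replicate spread, standard error or p-value can therefore be had, and every difference below compares 2 RNA samples.

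Aldehyde dehydrogenases oxidise aldehydes to acids with NAD or NADP, and aldo-keto reductases reduce aldehydes and ketones to alcohols with NADPH. UGT enzymes join a sugar from a UDP-sugar, mostly glucuronic acid, to steroids, bile acids and drugs, and GST enzymes join glutathione to electrophiles. The conjugates leave the cell through ABC transporters. In the gut and the liver many of these genes respond to the factors NRF2 and AHR and to the hepatocyte nuclear factors. Some members are enzymes of ordinary metabolism that share only their ancestry with the detoxifying ones.

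ANO5 itself read 3.67 on the log2 scale in ANO5 siRNA cells and 6.83 in control cells, a difference of -3.16. The ANO5 siRNA value lay below the background gauge described next, so background may limit the size of this difference. Of 12 markers of gastric and intestinal epithelium in the table, 10 lay above a background gauge on both arrays, EPCAM among them at 17.04 in ANO5 siRNA cells and 16.63 in control cells. The gauge was the 95th percentile of 105 olfactory receptor genes, which most tissues do not express, at 5.65 on the ANO5 siRNA array and 5.59 on the control array. The mucosal trefoil peptide genes TFF1 and TFF3 lay below it on both. All 6 hepatocyte markers in the table, ALB among them at 5.25 in ANO5 siRNA cells and 4.71 in control cells, lay below it too, as did 3 of 4 fibroblast markers, 5 of 8 blood markers and 3 of 6 markers of endothelium and muscle. The summed signal of the hepatocyte list was 7.48 on the log2 scale in ANO5 siRNA cells and 7.47 in control cells. For the blood list it was 10.3 in ANO5 siRNA cells and 11.1 in control cells, with the leukocyte marker PTPRC at 3.49 in ANO5 siRNA cells and 3.68 in control cells. LYZ, the highest of the blood list on both arrays, read 9.80 in ANO5 siRNA cells and 10.88 in control cells. It was 2.11-fold lower in ANO5 siRNA cells, the only 1 of the 8 blood markers past 2-fold. Of the 12 epithelial markers, KRT19 and CDH17 were 2.03-fold and 2.25-fold higher in ANO5 siRNA cells, and the other 10 were within 2-fold. Among all named genes 8.33% were higher and 8.35% lower. Both samples were cultures of the same gastric cancer line, so these lists describe RNA levels in that line and do not count cells. The part of such markers in the results was not tested.

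Differences went both ways within the 4 families. A gene was counted as higher or lower at 2-fold, a log2 difference of 1, between ANO5 siRNA cells and control cells. By this rule 10 of 51 genes (19.6%) were higher and 4 (7.84%) lower, beside 8.33% higher and 8.35% lower among all named genes. In the measured range, the genes with a mean over both arrays of at least 6.05 (the 33rd percentile of all named genes), 9 of 35 were higher (25.7%) and 4 lower (11.4%). The background there was 11.2% higher and 11.3% lower. This range rests on both compared arrays, so a gene can enter it through the array where it is high. UGT2B17, counted higher, had a control value under 6.05. GSTM2 and GSTK1, counted lower, had ANO5 siRNA values under 6.05. At 1.5-fold, 15 of 51 were higher and 10 lower, with a background of 18.6% and 16.6%. At 3-fold, 4 were higher and 2 lower, with a background of 2.56% and 3.72%. The share lower was thus near the background and the share higher was above it, in 1 pair of arrays and with no test.

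The family medians of the log2 difference were 0.77 for UGT, 0.19 for ALDH, -0.225 for GST and -0.33 for AKR, beside 0.03 for all named genes. In the measured range the UGT median was 2.19 over 3 genes and the AKR median -0.67 over 5. The 2.19 is the difference of UGT2B17 itself, between UGT2B15 (3.28) and UGT8 (-2.81). UGT2B17 entered that range through its ANO5 siRNA value of 7.76, its control value being 5.57. With values floored at the background gauge the UGT median was 0.31 and the GST median 0.00. Ranges overlapped between the families. They ran from -2.81 to 3.28 in UGT, from -0.62 to 2.06 in ALDH, from -2.48 to 1.21 in GST and from -0.88 to 1.02 in AKR. The ALDH family had 4 genes higher and 0 lower, UGT 2 higher and 1 lower, GST 3 higher and 3 lower, and AKR 1 higher and 0 lower. Among all named genes 8.33% were higher and 8.35% lower. Members of a family are not replicates, and near-identical copies may share signal.

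**Figure D1:**
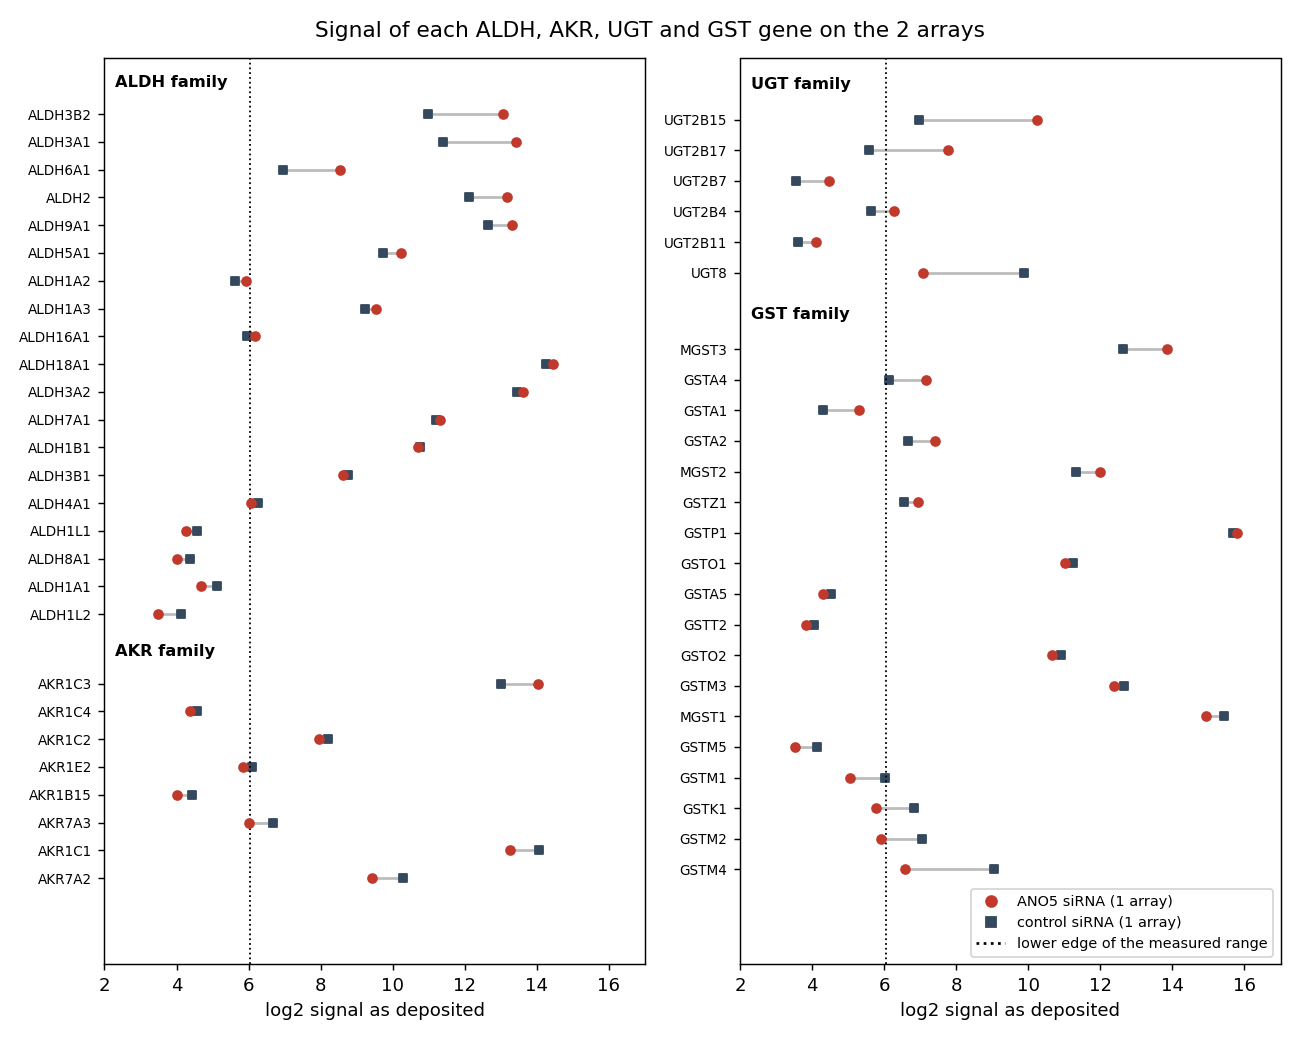
Log2 signal (x axis, as deposited) of each of the 51 genes (rows, grouped by family and ordered by difference) on the ANO5 siRNA array (circles) and the control siRNA array (squares), 1 array each, with the lower edge of the measured range dotted at 6.05. UGT2B15 is farthest to the right of its control value, at 10.25 in ANO5 siRNA cells and 6.97 in control cells, and UGT8 farthest to the left, at 7.07 in ANO5 siRNA cells and 9.88 in control cells.

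**Figure D2:**
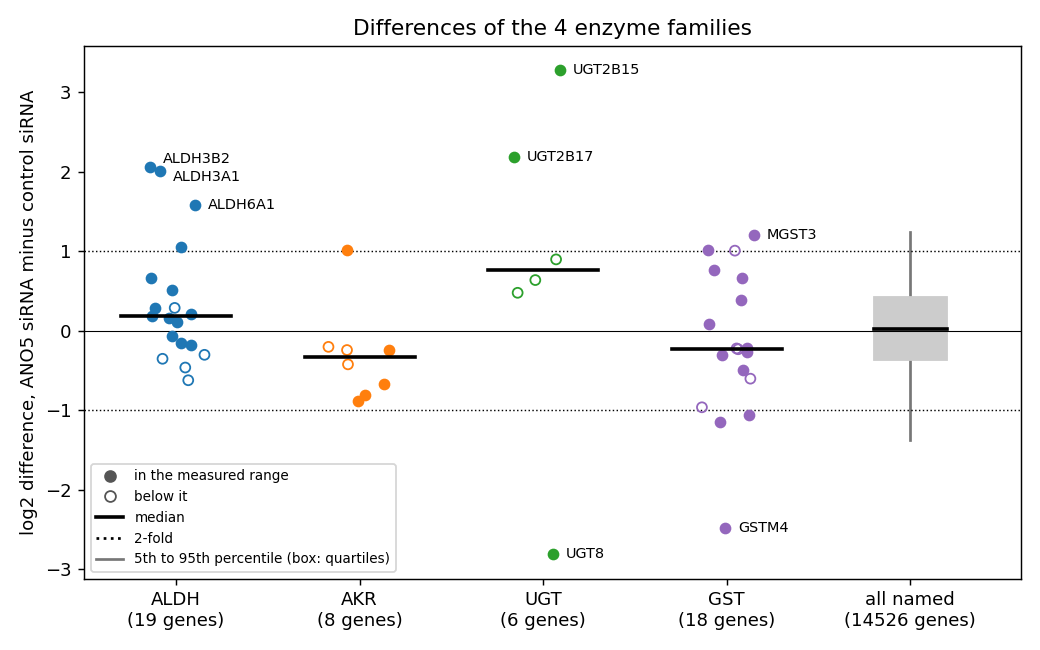
Log2 difference, ANO5 siRNA minus control siRNA (y axis), of every gene in the 4 families, filled where the gene is in the measured range, with the family median as a bar. The box and line on the right give the quartiles (-0.36 and 0.43) and the 5th and 95th percentiles (-1.37 and 1.25) of all 14526 named genes, and the 8 labelled genes of the families lie outside them or, for MGST3 (1.21), just inside.

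The widest differences of all 51 genes were in the UGT family. UGT2B15, which glucuronidates androgens and many drugs, read 10.25 in ANO5 siRNA cells and 6.97 in control cells, a difference of 3.28 or 9.71-fold higher. Of all named genes, 0.186% lay as high. UGT2B17, its close relative with much the same androgen substrates, read 7.76 in ANO5 siRNA cells and 5.57 in control cells (2.19, or 4.56-fold higher). The control value of UGT2B17 lay just under the background gauge, so background may limit this fold. These genes are close copies, and the array may not separate their transcripts, so they are not independent measurements.

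The other UGT2B genes pointed the same way from low levels. UGT2B7, an enzyme of opioid and bile acid glucuronidation, read 4.46 in ANO5 siRNA cells and 3.56 in control cells (0.90). UGT2B4, which acts on bile acids, read 6.27 in ANO5 siRNA cells and 5.63 in control cells (0.64), and UGT2B11 read 4.10 in ANO5 siRNA cells and 3.62 in control cells (0.48). None of these 3 reached 2-fold, and UGT2B7 and UGT2B11 lay below the background gauge on both arrays. All 5 UGT2B genes on the arrays were thus above 0, beside 7577 of all 14526 named genes. Their median of 0.90 is the difference of UGT2B7 itself. With values floored at the background gauge, UGT2B7 and UGT2B11 each differed by 0.00. In the reference gene order the 5 UGT2B genes lie in 1 run on chromosome 4. In this run no more than 5 protein-coding genes separate one from the next. UGT1A genes were not analysed here.

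UGT8 went against the rest of its family. It transfers galactose to ceramide, the step that makes galactosylceramide, and is a lipid-synthesising rather than a detoxifying enzyme. Its signal was 7.07 in ANO5 siRNA cells and 9.88 in control cells, a difference of -2.81 or 7.01-fold lower, and 0.682% of all named genes lay as low. Both values lay above the background gauge.

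The promoter window of UGT2B15 is shown because this gene had the largest difference of the set. It runs from 250 bases before to 50 after the transcript start (RefSeq, GRCh38.p14), and is printed in lower case since none of the 3 motifs searched below was matched in it.
UGT2B15, chr4:68670603-68670902 (minus strand): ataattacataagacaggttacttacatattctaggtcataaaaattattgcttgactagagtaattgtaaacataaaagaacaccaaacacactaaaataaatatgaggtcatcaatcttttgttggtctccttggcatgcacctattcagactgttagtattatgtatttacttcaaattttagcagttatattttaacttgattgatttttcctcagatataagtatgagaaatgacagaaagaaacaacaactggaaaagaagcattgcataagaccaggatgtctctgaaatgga
Of the windows of UGT2B genes in the same reference, that of UGT2B11 was 70.2% identical to it and that of UGT2B7 62.6%, in a global alignment that counts gap columns.

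In the ALDH3 subfamily, 1 gene of each branch was over 4-fold higher and its sister was not past 2-fold. ALDH3A1, an abundant stomach enzyme that oxidises aromatic and medium-chain aldehydes, read 13.42 in ANO5 siRNA cells and 11.41 in control cells (2.01, or 4.03-fold higher). ALDH3B2, of a branch that acts on long-chain lipid aldehydes, read 13.05 in ANO5 siRNA cells and 10.99 in control cells (2.06, or 4.17-fold higher). Differences as high were found in 1.17% and 1.08% of all named genes. Of the sister genes, ALDH3A2, the fatty aldehyde dehydrogenase, read 13.62 in ANO5 siRNA cells and 13.46 in control cells (0.16), and ALDH3B1 read 8.61 in ANO5 siRNA cells and 8.76 in control cells (-0.15). ALDH3A1 and ALDH3A2 are neighbours on chromosome 17, and ALDH3B1 and ALDH3B2 lie in 1 run with GSTP1 on chromosome 11.

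Of the aldehyde dehydrogenases of mitochondria, 6 in the measured range ranged from 2.99-fold higher to 1.13-fold lower. ALDH6A1, which handles methylmalonate semialdehyde in the breakdown of valine and thymine, read 8.53 in ANO5 siRNA cells and 6.95 in control cells (1.58, or 2.99-fold higher). ALDH2, the main enzyme of acetaldehyde oxidation, read 13.17 in ANO5 siRNA cells and 12.11 in control cells (1.06, or 2.08-fold), close to the threshold. ALDH5A1, which oxidises succinate semialdehyde, read 10.24 in ANO5 siRNA cells and 9.73 in control cells (0.51). ALDH1B1, another acetaldehyde enzyme, read 10.69 in ANO5 siRNA cells and 10.75 in control cells (-0.06), and ALDH4A1, of proline breakdown, read 6.07 in ANO5 siRNA cells and 6.25 in control cells (-0.18). ALDH18A1, which makes the precursor of proline, read 14.45 in ANO5 siRNA cells and 14.26 in control cells (0.19).

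Among the remaining ALDH genes, ALDH9A1, an enzyme of carnitine synthesis, read 13.31 in ANO5 siRNA cells and 12.64 in control cells (0.67, or 1.59-fold higher). ALDH7A1, of lysine breakdown, differed by 0.11 and ALDH16A1 by 0.21. Of the retinaldehyde dehydrogenases, which make retinoic acid, only ALDH1A3 was in the measured range, at 9.53 in ANO5 siRNA cells and 9.24 in control cells (0.29). ALDH1A2 read 5.92 in ANO5 siRNA cells and 5.63 in control cells (0.29) and ALDH1A1 4.67 in ANO5 siRNA cells and 5.13 in control cells (-0.46), ALDH1A1 being below the background gauge on both arrays. ALDH1A1 is a gene often used to mark stem-like tumour cells. ALDH1L1 and its mitochondrial counterpart ALDH1L2, folate enzymes, and ALDH8A1, of tryptophan breakdown, also lay below the gauge, with differences from -0.62 to -0.30.

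**Figure D3:**
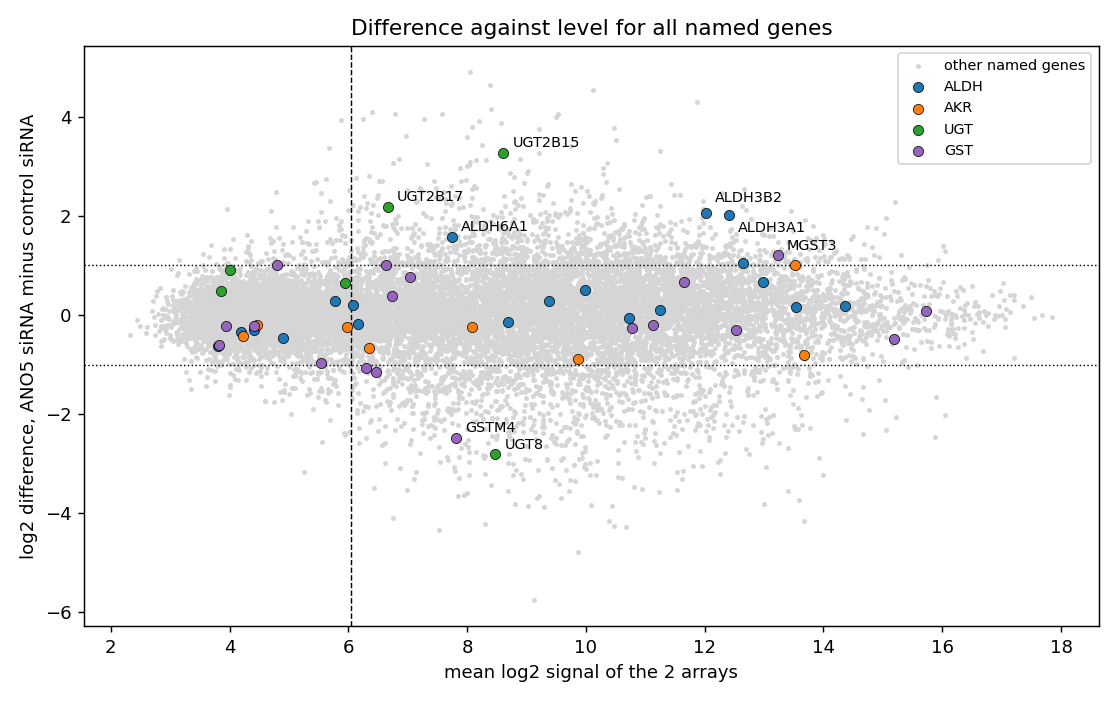
Log2 difference, ANO5 siRNA minus control siRNA (y axis), against the mean log2 signal of both arrays (x axis) for all 14526 named genes (grey) and the 4 families (coloured), with 2-fold dotted and the lower edge of the measured range dashed. ALDH3A1, ALDH3B2 and MGST3 differ at mean levels of 12.4, 12.02 and 13.2, far above that edge, whereas GSTM4, UGT8 and UGT2B15 lie at 7.81, 8.47 and 8.61.

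In the AKR family, 7 of 8 differences lay below 0, beside 6816 of all 14526 named genes. The exception was AKR1C3, which reduces androgen precursors and prostaglandins, at 14.03 in ANO5 siRNA cells and 13.01 in control cells (1.02, or 2.03-fold higher). Its 2-fold call was lost with quantile normalization and loess, which leave the family with 0 genes past 2-fold. AKR1C1, an enzyme that inactivates progesterone and reduces lipid aldehydes, read 13.26 in ANO5 siRNA cells and 14.07 in control cells (-0.81, or 1.75-fold lower). AKR1C2, which inactivates dihydrotestosterone, read 7.96 in ANO5 siRNA cells and 8.20 in control cells (-0.24), and AKR1C4, a liver enzyme, lay below the background gauge at 4.37 in ANO5 siRNA cells and 4.57 in control cells. AKR1C3 and AKR1C1 thus differed in opposite directions although they belong to 1 run of genes on chromosome 10. Their promoter windows in the reference were 73.5% identical, against 93.5% between AKR1C1 and AKR1C2. AKR1C transcripts are alike, and the array's separation of them was not tested.

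The aflatoxin aldehyde reductases were both lower by over 1.5-fold, as were 16.6% of all named genes. AKR7A2 read 9.42 in ANO5 siRNA cells and 10.30 in control cells (-0.88, or 1.84-fold lower), and its neighbour AKR7A3 read 6.01 in ANO5 siRNA cells and 6.68 in control cells (-0.67, or 1.59-fold lower). AKR1E2 differed by -0.24 and AKR1B15 by -0.42, both below the measured range. AKR1B15 also lay below the background gauge, at 4.02 in ANO5 siRNA cells and 4.44 in control cells. Other AKR1B genes were not analysed here.

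Classes of the GST family, which differ in sequence and in preferred substrates, differed in direction. In the mu class, 2 of 5 genes were past 2-fold lower, beside 8.35% of all named genes. All 5 differences lay below 0, beside 6816 of all 14526 named genes, with a median of -0.96. GSTM4 read 6.57 in ANO5 siRNA cells and 9.05 in control cells (-2.48, or 5.58-fold lower), and 1.07% of all named genes lay as low. GSTM2 read 5.90 in ANO5 siRNA cells and 7.04 in control cells (-1.14, or 2.20-fold lower). GSTM1 read 5.06 in ANO5 siRNA cells and 6.02 in control cells (-0.96), just short of 2-fold and with the ANO5 siRNA value under the background gauge. GSTM5 lay under the gauge on both arrays, at 3.53 in ANO5 siRNA cells and 4.13 in control cells (-0.60). GSTM3 read 12.37 in ANO5 siRNA cells and 12.67 in control cells (-0.30), the smallest difference of the class. These 5 genes form 1 run on chromosome 1. GSTM1, GSTM2, GSTM4 and GSTM5 are close copies, so that single members are uncertain and the 5 are not separate measurements.

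The promoter windows of those 4 mu class genes are printed because the class holds 2 of the 4 genes past 2-fold lower, GSTM4 and GSTM2, beside close copies that were not past it. Capitals mark matches to the core of the antioxidant response element, the site that NRF2 binds (TGACNNNGC), and to that of the xenobiotic response element, the site that AHR binds (GCGTG), on either strand.
GSTM4, chr1:109655849-109656148 (plus strand): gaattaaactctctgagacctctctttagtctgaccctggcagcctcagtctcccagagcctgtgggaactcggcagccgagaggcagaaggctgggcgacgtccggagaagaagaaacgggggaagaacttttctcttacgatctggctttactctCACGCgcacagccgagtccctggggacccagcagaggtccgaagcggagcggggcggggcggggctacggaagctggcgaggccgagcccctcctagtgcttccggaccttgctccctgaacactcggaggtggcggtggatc
GSTM2, chr1:109667807-109668106 (plus strand): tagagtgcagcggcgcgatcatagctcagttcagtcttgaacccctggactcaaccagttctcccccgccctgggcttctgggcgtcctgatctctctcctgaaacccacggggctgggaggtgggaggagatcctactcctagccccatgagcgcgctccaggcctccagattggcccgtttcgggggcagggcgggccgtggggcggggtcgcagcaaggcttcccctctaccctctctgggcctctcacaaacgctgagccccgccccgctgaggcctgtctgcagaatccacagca
GSTM1, chr1:109687567-109687866 (plus strand): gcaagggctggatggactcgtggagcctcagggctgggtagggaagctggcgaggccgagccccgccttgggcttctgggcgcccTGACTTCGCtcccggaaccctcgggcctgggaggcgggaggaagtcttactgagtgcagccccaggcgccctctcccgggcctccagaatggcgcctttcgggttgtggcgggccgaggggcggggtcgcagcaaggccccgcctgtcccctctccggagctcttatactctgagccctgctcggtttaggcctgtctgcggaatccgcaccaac
GSTM5, chr1:109712001-109712300 (plus strand): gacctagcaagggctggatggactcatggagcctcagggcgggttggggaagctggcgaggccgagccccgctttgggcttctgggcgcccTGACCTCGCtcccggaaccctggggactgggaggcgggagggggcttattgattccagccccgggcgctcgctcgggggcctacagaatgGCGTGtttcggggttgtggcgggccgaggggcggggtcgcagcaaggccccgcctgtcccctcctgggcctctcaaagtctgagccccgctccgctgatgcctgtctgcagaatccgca
The window of GSTM1 was 84.7% identical to that of GSTM5, 68.9% to that of GSTM2 and 48.4% to that of GSTM4. It was 41.4% identical to that of GSTM3, which is not printed. GSTM4 had the largest difference of the class and GSTM3 the smallest (-0.30). GSTM1 holds the antioxidant core at -165 to -157 from the transcript start and GSTM5 at -159 to -151, beside a xenobiotic core at -69 to -65. GSTM2 holds neither core. GSTM4 holds the xenobiotic core at -93 to -89, on the other strand.

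In the alpha class, 3 of 4 differences lay above 0, beside 7577 of all 14526 named genes. Of these 4 genes, 2 were past 2-fold higher, beside 8.33% of all named genes. GSTA4, which conjugates aldehydes of lipid peroxidation, read 7.15 in ANO5 siRNA cells and 6.13 in control cells (1.02, or 2.03-fold higher). GSTA2 read 7.42 in ANO5 siRNA cells and 6.65 in control cells (0.77, or 1.71-fold higher). GSTA1 read 5.30 in ANO5 siRNA cells and 4.29 in control cells (1.01), below the background gauge on both arrays, so its count as 2-fold higher rests on values of background size. GSTA5 read 4.30 in ANO5 siRNA cells and 4.52 in control cells (-0.22), also below the gauge.

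GSTA1 and GSTA2 are near copies, and their windows show it. They are 96% identical and differ at 12 of 300 positions. Capitals mark the core of the binding site of the hepatocyte nuclear factor HNF1 (GTTAAT, here on the other strand), at -180 to -175 in both.
GSTA1, chr6:52803767-52804066 (minus strand): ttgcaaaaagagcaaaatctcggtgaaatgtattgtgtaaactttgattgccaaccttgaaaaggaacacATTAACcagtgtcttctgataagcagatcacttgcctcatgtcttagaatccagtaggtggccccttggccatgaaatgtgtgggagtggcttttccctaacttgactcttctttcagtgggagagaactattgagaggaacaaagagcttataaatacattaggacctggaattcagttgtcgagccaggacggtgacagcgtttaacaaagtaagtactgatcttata
GSTA2, chr6:52763426-52763725 (minus strand): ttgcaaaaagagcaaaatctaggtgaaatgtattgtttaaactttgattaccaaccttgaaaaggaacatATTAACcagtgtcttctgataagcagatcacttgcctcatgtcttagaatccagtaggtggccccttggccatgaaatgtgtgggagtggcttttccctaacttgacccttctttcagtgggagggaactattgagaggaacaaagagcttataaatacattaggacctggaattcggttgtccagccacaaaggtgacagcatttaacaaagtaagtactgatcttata
Signal may be shared between these copies, and single members are uncertain.

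Microsomal GST genes, whose products sit in membranes, lay on both sides of 0. MGST3 read 13.84 in ANO5 siRNA cells and 12.63 in control cells (1.21, or 2.31-fold higher). MGST2, which can form leukotriene C, read 11.98 in ANO5 siRNA cells and 11.32 in control cells (0.66, or 1.58-fold higher). MGST1, an enzyme of membrane lipid peroxides, read 14.94 in ANO5 siRNA cells and 15.43 in control cells (-0.49). GSTK1, the kappa class enzyme of mitochondria and peroxisomes, read 5.76 in ANO5 siRNA cells and 6.82 in control cells (-1.06, or 2.08-fold lower).

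GSTP1, the pi class gene often abundant in tumours, read 15.78 in ANO5 siRNA cells and 15.69 in control cells (0.09). GSTO1 and GSTO2, omega class neighbours on chromosome 10, differed by -0.21 and -0.26. GSTZ1, which acts in tyrosine breakdown, differed by 0.39. GSTT2 has 2 clusters (sets of probes for 1 transcript region), and both lay below the gauge, with differences of -0.23 and -0.07. It was the only gene of the 51 with more than 1 cluster.

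Level set limits on these comparisons. Of the 51 genes, 37 lay above the background gauge on both arrays, 2 on 1 array (UGT2B17 and GSTM1) and 12 on neither. Of the 16 genes below the measured range, 1 reached 2-fold (GSTA1), beside 2.59% higher and 2.28% lower among all named genes below it. Of the 14 genes past 2-fold, ALDH2, AKR1C3, GSTA4, GSTA1 and GSTK1 lay within 0.06 of the threshold on the log2 scale, and GSTM1 lay 0.04 outside it. The 2-fold call was lost for AKR1C3 with quantile normalization (0.98) and loess (0.92), and for ALDH2 (0.94) and GSTA4 (0.997) with loess. With a linear pseudocount of 32 it was lost for GSTA4 (0.77), GSTA1 (0.47), GSTK1 (-0.75) and GSTM2 (-0.83). No detection calls were used. Folds from values near the gauge may be understated or, with 1 array per group, overstated.

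The 3 motifs were searched on both strands in the windows that the reference holds for 41 of the 51 genes, 54 windows in all since some genes have several starts. The antioxidant core TGACNNNGC occurred in 16.7% of them, against 13.3% of all 35116 windows in the reference. The xenobiotic core GCGTG occurred in 31.5% against 36.5%, and the HNF1 core GTTAAT in 7.41% against 6.88%. No match of one motif overlapped a match of another in these windows. The 8 genes with the antioxidant core were AKR7A2, GSTM1, GSTM5, UGT2B11, GSTA4, GSTO1, GSTP1 and MGST1, with a median difference of -0.35. Of these, GSTA4 was past 2-fold higher and none was past 2-fold lower, beside 8.33% and 8.35% of all named genes. The xenobiotic core was in 14 genes, with a median difference of -0.25. Of the 14, 1 was past 2-fold higher (MGST3) and 2 were past 2-fold lower (GSTM4 and UGT8). The HNF1 core was in GSTA1, GSTA2 and MGST1. Matches are letters in a window of reference sequence and show no binding.

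Genes that supply, regulate or follow the 4 families were taken from 7 lists. Their counts past 2-fold stand beside 8.33% higher and 8.35% lower among all named genes, and no list was tested. Among genes of glutathione supply and use, 4 of 27 (background 8.33%) were higher and 3 (8.35%) lower, with a median of 0.04. SLC7A11, which imports cystine for glutathione, read 12.76 in ANO5 siRNA cells and 10.11 in control cells (2.65). GSS, the second enzyme of glutathione synthesis, read 9.20 in ANO5 siRNA cells and 10.90 in control cells (-1.70), and CHAC2, which breaks glutathione down, 7.78 in ANO5 siRNA cells and 9.95 in control cells (-2.17). GCLC, the catalytic subunit of the first enzyme, differed by 0.95 and GCLM, its modifier, by -0.38. HAGH (1.47), GPX1 (1.19), GLRX2 (1.06) and GLRX5 (-1.20) were the others past 2-fold.

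The NRF2 pathway outside the families was taken in 2 lists. Of 17 target genes, 2 were higher (SLC7A11 and EPHX1, an epoxide hydrolase, at 1.32) and 0 lower, with a median of 0.26. NQO1, a quinone reductase widely used as an NRF2 readout, read 16 in ANO5 siRNA cells and 15.61 in control cells (0.39). Of 9 regulators, 0 were higher and 1 lower, with a median of 0.21. NFE2L2, the gene of NRF2, differed by -0.16, its inhibitor KEAP1 by 0.78, and the related factor NFE2L1 by -1.11.

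Glucuronidation supply and sulfotransferase genes had 4 of 14 higher (background 8.33%) and 0 lower (8.35%). Their median was 0.29, but 0.445 in the measured range and 0.00 with values floored at the background gauge. UGP2, which makes UDP-glucose, read 11.00 in ANO5 siRNA cells and 9.97 in control cells (1.03), whereas UGDH, which turns it into the glucuronic acid donor, read 12.89 in ANO5 siRNA cells and 13.36 in control cells (-0.47). SLC35D2, a nucleotide sugar transporter, differed by 1.63, the sulfotransferase SULT2B1 by 1.25 and PAPSS1, which makes the sulfate donor, by 1.04. Of 8 conjugate efflux transporters, 3 were higher (background 8.33%) and 1 lower (8.35%). Their median was -0.005, but 1.545 over the 4 in the measured range. ABCC3, which exports glucuronides, read 10.51 in ANO5 siRNA cells and 8.46 in control cells (2.05). ABCC10 (1.61) and ABCC5 (1.48) were also higher and ABCC4 (-1.22) lower, and the 4 others lay below the measured range with differences from -0.09 to 0.02.

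Receptors and gut or liver factors had 1 of 13 higher (background 8.33%) and 1 lower (8.35%), with a median of 0.07. PPARD differed by 1.46 and VDR by -1.10. AHR, the dioxin receptor, read 15.32 in ANO5 siRNA cells and 15.23 in control cells (0.09), and its partner ARNT differed by 0.64. Other carbonyl, alcohol and xenobiotic enzymes had 7 of 35 higher (background 8.33%) and 2 lower (8.35%). Their median was 0.27, but 0.56 in the measured range and 0.016 with the floor. DHRS9, a retinol dehydrogenase, read 8.44 in ANO5 siRNA cells and 4.35 in control cells (4.09), the control value below the background gauge. ADH1B and ADH1C, alcohol dehydrogenases and close copies, differed by 2.03 and 1.74, and NAT1, an arylamine acetyltransferase, by 1.97. PTGR2, a prostaglandin reductase, differed by -1.16. EPHX1 and TPMT were also higher, and FMO5 and AOX1, below the measured range, were past 2-fold higher and lower in that order.

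**Figure D4:**
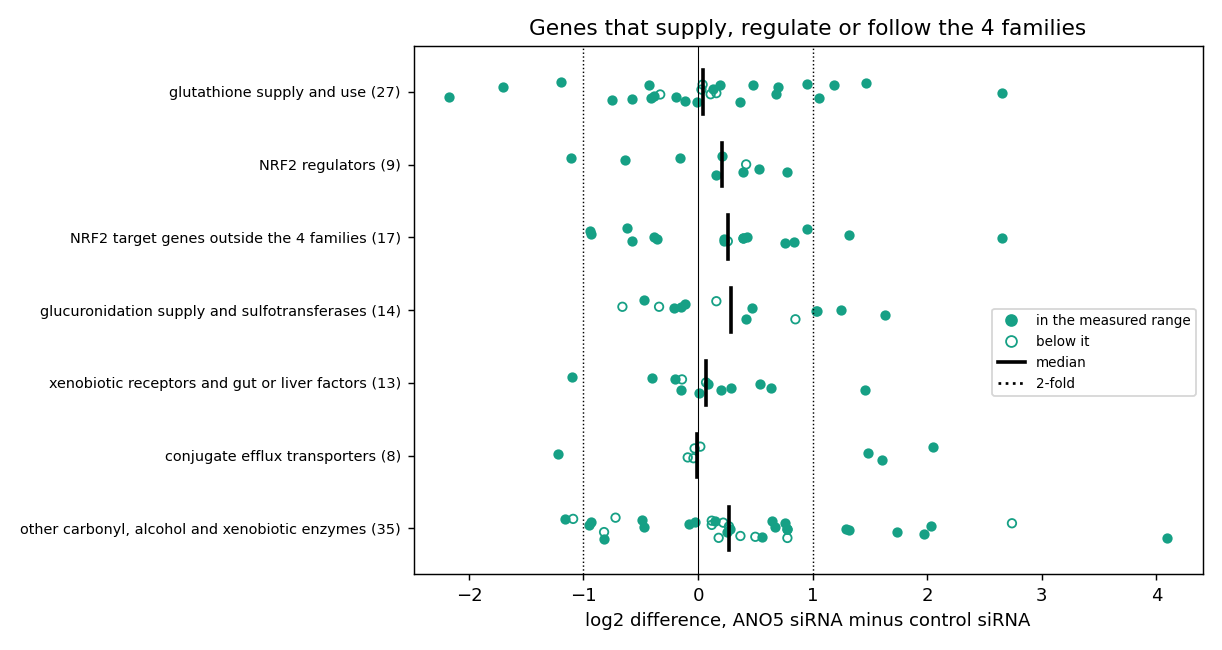
Log2 difference, ANO5 siRNA minus control siRNA (x axis), of genes in 7 lists around the 4 families (rows, number of genes in brackets), filled where in the measured range, with each list's median as a bar and 2-fold dotted. List medians over all genes lie between -0.005 and 0.29, that of efflux transporters being 1.545 in the measured range, and single genes such as DHRS9 (4.09), FMO5 (2.74) and SLC7A11 (2.65) lie far outside.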

How the data were processed

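RNA of 2 NUGC4 cultures, 1 array per group, was measured. The deposited table has 17345 transcript clusters with values from 2.13 to 18.15, a range taken here for log2 signal. Agilent Feature Extraction 12.0.3.1 appears in the submitters' processing notes, but the form of the cluster identifiers is not Agilent's. How background, probes and arrays were treated, and with which build and log base, was not given in the sources used here.

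Clusters were named by the platform annotation. The cluster with the highest mean was kept per gene. The arrays' 75th percentiles over named genes differed by 0.02, so values were used unscaled. All differences are ANO5 siRNA minus control siRNA, called at 2-fold. The number of arrays limits the precision, and no test was possible. The genes named are those past 2-fold, the 4 highest-signal genes of each family, genes of the AKR1B, AKR1C, UGT2B, ALDH1A and ALDH3 groups and, from each list, up to 4 measured genes past 2-fold each way. Other genes were added after their values were seen. Members and lists were chosen with earlier results of these data known. The calling code was run on simulated data with little noise and planted differences that were all well past 2-fold. That checks the code and says nothing about the calls made here. Promoter windows came from RefSeq (GRCh38.p14), which also gave the gene order for 50 of the 51 genes. The software was Python 3.11.15 with numpy 2.4.6 and pandas 2.3.3, and statsmodels 0.14.6 for loess.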

Additional observations from a re-analysis of the deposited data

How the results depend on the processing

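No paired analysis was possible because each group holds 1 array. A median was counted as moved where it shifted by 0.1 or more on the log2 scale. Centring on the median or the 75th percentile, quantile normalization and the median over clusters moved none of the 5 medians that far. Loess moved the median of all 51 genes to -0.19 from -0.06, and the filter at the 33rd percentile moved it to 0.16, that at the 50th to 0.14 and the mean to 0.13, so its sign is not settled. The UGT median of 0.77 became 2.19 and 0.24 with these filters, the 2.19 being the difference of UGT2B17 among 3 genes. The UGT median became 0.36 with a linear pseudocount of 32. It was 0.31 with values floored at the background gauge, an alternative chosen after seeing the data. The AKR median became -0.67 and -0.53 with the filters and -0.19 with the pseudocount, the GST median 0.00 with the floor, and the ALDH mean was 0.37. The filters and the floor act through fewer or levelled members. Genes called higher numbered 6 with the 50th percentile filter and 4 at 3-fold. Genes called lower numbered 2 with the pseudocount, 1 with that filter, 10 at 1.5-fold and 2 at 3-fold. The background moved as well. Of all named genes, 959 were higher and 1000 lower with the pseudocount, against 1210 and 1213 in the main setting. The background was 2.56% higher and 3.72% lower at 3-fold, and 18.6% and 16.6% at 1.5-fold. For the 50th percentile filter neither the number of genes kept nor a background is given here, so its counts cannot be read as shares. Of the 14 genes past 2-fold, 6 lost the call under at least 1 of 7 alternatives, namely GSTA1, GSTA4, AKR1C3, ALDH2, GSTK1 and GSTM2. GSTA1 differed by 0.47 with the pseudocount and by 0.00 with the floor. Medians of the glucuronidation and efflux lists were 0.725 and 0.415 with the filter at the 50th percentile.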
